A study of Mus musculus with 6 samples.

Results

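Mitosis genes encode the machinery that condenses the chromosomes, attaches them to the spindle, pulls the copies apart and cleaves the cell. The group described here was a list of 46 such genes, from spindle checkpoint proteins to condensin. The list was drawn up by gene function, but with earlier results of these data known, so it is not independent of the values. Each gene was read by its brightest probe set annotated to that gene alone. Of the 46, 45 had such a probe set among 18193 genes so covered. The exception was Ccnb1, which encodes cyclin B1 and is not analysed here. RNA came from back skin of mouse embryos at E15.5 and was measured on 6 Affymetrix MOE430 2.0 arrays. The 3 control samples were Fzd6 +/- and the 3 knockout samples Fzd6 -/-, all on a C57BL6/129 mixed background. Fzd6 encodes Frizzled 6, a Wnt-family receptor of planar cell polarity. The controls thus carried 1 mutant allele, and no wild-type skin enters. The samples are called biological replicates, and the sources do not state whether each was a single embryo. If some shared a source, p-values measure only the spread between these samples. All values are RMA summaries read as log2, so a difference of 1 is a doubling.

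In skin of this age, dividing cells include basal keratinocytes, hair placodes, dermal fibroblasts and vessel cells, while cells of the upper epidermal layers are leaving the cycle. Most mitosis genes are switched on late in the cycle, in G2 and M phase. Their transcription is held back in resting cells by the DREAM complex and driven in cycling cells by B-Myb and FoxM1. A known entry point for these factors is the cell cycle genes homology region (CHR), with the letters TTTGAA, often with CCAAT boxes, bound by NF-Y, a short way upstream. In bulk tissue, fewer dividing cells and less RNA per dividing cell cannot be told apart.

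The promoter sequences are shown first because the members are otherwise joined only by function. RefSeq windows of 300 bases (250 before the annotated start and 50 after, GRCm38.p6) were given for 40 of the 46 genes, in 43 windows. Both motifs were searched on both strands. TTTGAA was in 33 of the 43 windows (76.7%), against 16.0% of 21263 windows of protein-coding genes and 17.9% of all 32851 windows. CCAAT was in 32 windows (74.4%, against 38.2% and 37.4%), and both were in 28 (65.1%, against 6.38% and 6.95%). The median GC content was 59.0% in the members' windows and 56.3% in protein-coding windows. Of 44 CHR matches in the members' windows, 31 (70.5%) began between 50 bases before and 49 bases after the start, where 22.2% of the 3869 matches in protein-coding windows lay. Of the 44, 1 overlapped a CCAAT match. A further list of mitosis genes (92 with windows) held TTTGAA in 34.6% of windows, and DNA replication genes in 18.4%.

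**Figure D1:**
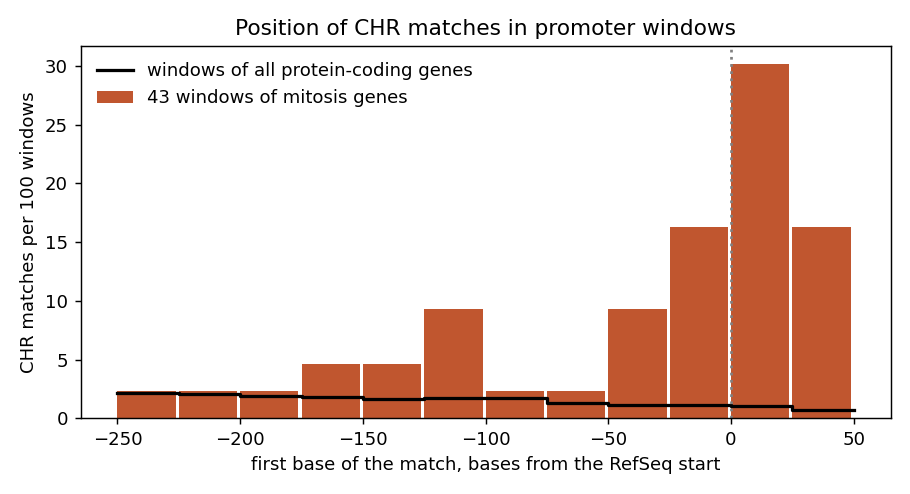
Position of TTTGAA matches on either strand, as the first base of the match relative to the RefSeq start, in bins of 25 bases. Bars give matches per 100 windows of the mitosis genes and the line those of all protein-coding genes. The tallest bar, 30.2 matches per 100 windows, covers the bases just after the start, where the line is at 1.04.

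The stretches below are the 120 bases before the RefSeq start of the members in which a CHR match began in the last 30 of these bases, read 5′ to 3′ on the gene's strand (GRCm38.p6). Capitals mark TTTGAA or its reverse complement TTCAAA, and CCAAT or its reverse complement ATTGG. Cdk1, the kinase that starts mitosis, was shown by a rule on small p-values. The others were chosen after the matches were seen.
Cdk1 (chr10:69352913-69353032, minus strand): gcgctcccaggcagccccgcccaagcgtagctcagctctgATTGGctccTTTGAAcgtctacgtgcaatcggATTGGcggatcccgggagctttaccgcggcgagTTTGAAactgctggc
Prc1 (chr7:80294356-80294475, plus strand): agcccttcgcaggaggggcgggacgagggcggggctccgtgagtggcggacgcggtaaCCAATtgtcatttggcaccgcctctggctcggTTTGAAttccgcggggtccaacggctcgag
Top2a (chr11:99024190-99024309, minus strand): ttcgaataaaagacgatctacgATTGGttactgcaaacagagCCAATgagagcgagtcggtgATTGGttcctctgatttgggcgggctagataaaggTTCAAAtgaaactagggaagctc
Kif11 (chr19:37376262-37376381, plus strand): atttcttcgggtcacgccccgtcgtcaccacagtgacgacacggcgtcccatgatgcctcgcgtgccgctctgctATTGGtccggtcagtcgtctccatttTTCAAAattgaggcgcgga
Cdc20 (chr4:118437344-118437463, minus strand): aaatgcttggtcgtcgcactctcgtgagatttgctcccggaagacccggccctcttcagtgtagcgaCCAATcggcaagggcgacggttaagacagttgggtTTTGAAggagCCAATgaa
Kif15 (chr9:122950961-122951080, plus strand): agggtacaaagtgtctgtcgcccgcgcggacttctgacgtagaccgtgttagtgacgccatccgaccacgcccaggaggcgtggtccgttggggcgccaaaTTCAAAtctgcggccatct
Espl1 (chr15:102296173-102296292, plus strand): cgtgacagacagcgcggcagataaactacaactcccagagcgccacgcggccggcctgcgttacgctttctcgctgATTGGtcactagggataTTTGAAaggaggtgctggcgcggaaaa
Kif22 (chr7:127042421-127042540, minus strand): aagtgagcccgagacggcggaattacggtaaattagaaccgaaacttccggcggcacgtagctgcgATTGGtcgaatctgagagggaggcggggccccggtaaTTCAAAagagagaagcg
Ube2c (chr2:164769809-164769928, plus strand): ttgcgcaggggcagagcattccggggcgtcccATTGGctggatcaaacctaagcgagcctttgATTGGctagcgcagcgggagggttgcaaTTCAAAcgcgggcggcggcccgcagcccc

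In 8 of these 9 stretches a CCAAT box lay upstream of the CHR match, and the gap between them was 12 bases in Espl1 and 21 to 32 bases in the other 7. Kif15 had no CCAAT match in its stretch. The same rule on small p-values gave the 250 bases before the start of Smc2, a condensin subunit. There the CHR match lay farther out, 145 bases before the start, and the CCAAT box downstream of it.
Smc2 (chr4:52438971-52439220, plus strand): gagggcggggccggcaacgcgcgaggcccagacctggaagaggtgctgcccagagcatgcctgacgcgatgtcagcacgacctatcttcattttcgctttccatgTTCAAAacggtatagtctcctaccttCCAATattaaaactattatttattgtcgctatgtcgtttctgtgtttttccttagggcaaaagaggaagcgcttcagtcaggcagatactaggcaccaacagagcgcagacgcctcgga

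The array values were also set beside the motif, with no test. Of the 30 measured members with TTTGAA in a window, 27 had a lower knockout mean, 3 of them without overlap, and the median knockout minus control difference was −0.12. Of the 9 without it, 7 were lower, 2 of them without overlap, and the median was −0.13. Lower without overlap were 4.31% of all genes and 5.54% of genes above the median level. Among 872 other measured genes whose windows held both motifs, 47.8% had a lower knockout mean, close to the 47.6% over all genes. These genes were dimmer, with a median level of 6.88 against 9.72 in the members with TTTGAA. The share over all genes above the median level was 58.6%, so the 2 sets are not alike in level. A match describes letters and shows no binding.

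Mitosis genes had slightly lower values in knockout skin, in 40 of 45 members, with a median difference of −0.125 (a ratio of 0.917) beside 0.0070 over all genes. The background share of genes with a lower knockout mean was 47.6%, and it was 58.6% among genes above the median level, where 44 of the 45 members lay. No member passed limma's adjusted p of 0.05 over the 45037 probe sets (smallest adjusted p of a member 0.909), nor did any of the 18193 genes (0% called). A fit blocked on replicate pairs passed 3 probe sets, none for a member. At an unadjusted limma p under 0.05, 4 members were lower and 0 higher, beside 1.91% and 3.17% of all genes. Among genes above the median level 2.45% were lower at that p. All 3 knockout arrays lay below all 3 controls in 7 members (15.6%), beside 4.31% of all genes and 5.54% of genes above the median level. The opposite order was seen in 0 members and in 6.99% of genes. Most differences were small against the spread: 4 members lay beyond −0.2, 24 between −0.2 and −0.1, 12 between −0.1 and 0 and 5 above 0. The median within-group SD of a member was 0.161.

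**Figure D2:**
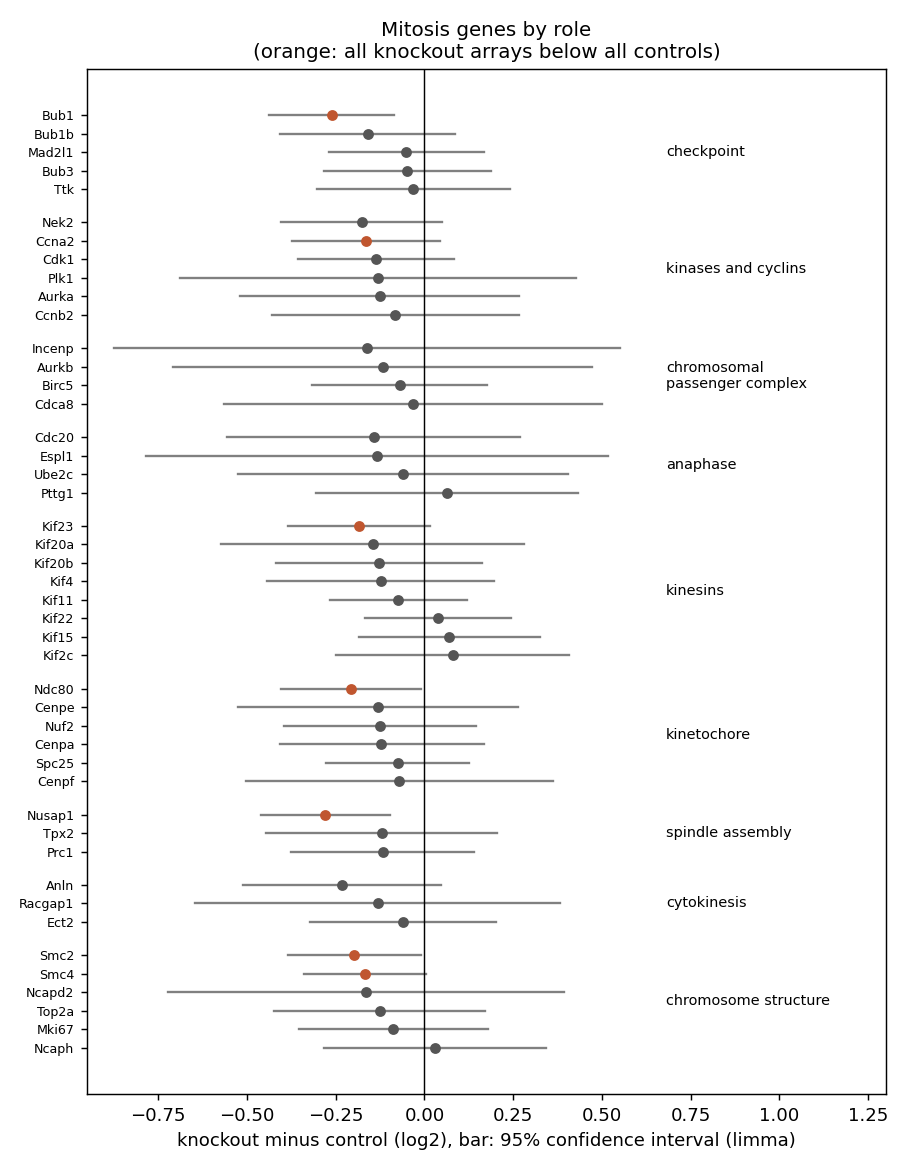
Knockout minus control difference of each of the 45 measured mitosis genes on the log2 scale, grouped by role, with the 95% confidence interval from limma. Orange points are the 7 members in which every knockout array lay below every control. The points lie mostly left of 0, and 4 intervals leave 0 out.

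The members with the smallest p belonged to the spindle, the checkpoint and the chromosomes themselves. Nusap1, a microtubule-binding protein of the spindle, was at 10.63, 10.57 and 10.69 in controls 1 to 3 and at 10.38, 10.30 and 10.38 in knockouts 1 to 3. No knockout array reached a control, and the means differed by −0.28 (limma 95% confidence interval −0.46 to −0.098, adjusted p = 0.909). Bub1, a kinase of the spindle checkpoint at the kinetochore, read 9.96, 9.86 and 9.95 in controls and 9.70, 9.63 and 9.65 in knockouts. Again no array crossed over (−0.26, −0.44 to −0.085, limma adjusted p = 0.909). Bub1b, which encodes the checkpoint protein BubR1, was at 9.58, 9.57 and 9.29 in controls and 9.31, 9.41 and 9.23 in knockouts (−0.16, −0.41 to 0.086), with control 3 among the knockouts. The remaining checkpoint genes also overlapped: Mad2l1 differed by −0.051, Bub3 by −0.048 and the kinase Ttk by −0.031 (−0.30 to 0.24). A second Ttk probe set gave −0.12 (−0.31 to 0.065) without overlap. In the dimmer probe set of Nusap1 the difference was 0.13 (−0.10 to 0.36) at a level near 6.1, so its result rests on 1 probe set.

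In condensin, the ring complex that compacts mitotic chromosomes, all arrays of the 2 genotypes were apart for both core ATPases. Smc2 measured 10.323, 10.236 and 10.302 in controls and 10.144, 10.003 and 10.124 in knockouts, a difference of −0.20 (−0.38 to −0.011). Smc4, its partner ATPase, measured 11.38, 11.38 and 11.36 against 11.21, 11.16 and 11.26 (−0.17, −0.34 to 0.0056). In both, the controls sat together above every knockout array. The limma adjusted p was 0.909 for each. All 4 dimmer Smc2 probe sets had lower knockout means, by −0.032 to −0.21, but the groups overlapped in each. Of the dimmer Smc4 probe sets, 1, at 10.7, differed by 0.13 (−0.083 to 0.35) and the other by −0.058, both with overlap. For each gene the separation of the genotypes thus rests on 1 probe set. The regulatory subunit Ncapd2 differed by −0.16 (−0.72 to 0.39). For Ncaph, the kleisin of the complex, the brightest probe set gave 0.030 (−0.28 to 0.34) and the other −0.23 (−0.52 to 0.050), there without overlap. Top2a, which untangles sister chromatids, read 11.86, 11.79 and 11.41 in controls and 11.62, 11.56 and 11.50 in knockouts (−0.13, −0.42 to 0.17). Mki67, the gene of the Ki-67 antigen that marks cycling cells, read 11.61, 11.61 and 11.26 against 11.44, 11.44 and 11.34 (−0.088, −0.35 to 0.18). In both of these, control 3 lay below all knockouts and the other controls above them.

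At the kinetochore, the protein plate that grips microtubules, all 6 members had lower knockout means in their brightest probe sets. Ndc80, which binds the microtubule directly, was at 8.21, 8.09 and 8.15 in controls and 8.04, 7.86 and 7.93 in knockouts, without overlap (−0.21, −0.40 to −0.0087, limma adjusted p = 0.909). Its partner Nuf2 measured 9.65, 9.30 and 9.53 against 9.49, 9.24 and 9.37 (−0.13, −0.40 to 0.15), and Spc25 of the same complex differed by −0.075. The groups overlapped in both. Cenpa, the histone H3 variant of centromeres, differed by −0.12 (−0.41 to 0.17), the motor Cenpe by −0.13 (−0.53 to 0.26) and the large coat protein Cenpf by −0.071 (−0.50 to 0.36). A second, dimmer Cenpe probe set, at 6.81 in controls, went the other way by 0.29 (−0.00093 to 0.58), with overlapping groups.

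Kinases and cyclins that drive entry into mitosis lay lower in all 6 measured members, by −0.082 to −0.18. Cdk1 was at 11.61, 11.38 and 11.48 in controls and 11.26, 11.36 and 11.44 in knockouts (−0.14, −0.36 to 0.083), so knockout 3 stood above control 2. Ccna2, or cyclin A2, read 10.80, 10.56 and 10.61 against 10.46, 10.53 and 10.50, with no overlap (−0.16, −0.37 to 0.045, limma adjusted p = 0.909). Its second probe set gave −0.17 (−0.36 to 0.026), also without overlap. Nek2, a kinase that splits the centrosomes, read 8.40, 8.43 and 8.30 against 8.15, 8.36 and 8.08 (−0.18, −0.40 to 0.050). Its dimmest probe set, at a level near 4.3 in controls, was higher in every knockout array by 0.40 (0.15 to 0.66). Ccnb2, or cyclin B2, differed by −0.082 (−0.43 to 0.27) and the spindle pole kinase Aurka by −0.13 (−0.52 to 0.27).

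For the motors and the cleavage machinery, 1 of 11 members had groups without overlap in its brightest probe set. Kif23, the motor of the central spindle, was at 9.22, 9.12 and 9.03 in controls and 8.86, 8.98 and 8.98 in knockouts (−0.18, −0.38 to 0.017, limma adjusted p = 0.909). Anln, the anillin scaffold of the cleavage furrow, read 10.41, 10.30 and 10.02 against 10.11, 10.02 and 9.90 (−0.23, −0.51 to 0.046), so control 3 lay among the knockouts. Kif20a, Kif20b and Kif4, which also act late in division, differed by −0.15, −0.13 and −0.12, and Kif11, which pushes the spindle poles apart, by −0.073. A second Kif11 probe set gave −0.21 (−0.39 to −0.026) without overlap. Racgap1 and Ect2, which set up the furrow through RhoA, differed by −0.13 and −0.060, and the spindle proteins Tpx2 and Prc1 by −0.12 each. Second probe sets, again without overlap, gave −0.31 (−0.62 to 0.0042) for Racgap1, −0.18 (−0.39 to 0.024) for Prc1 and −0.15 (−0.35 to 0.040) for Kif23.

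The 5 members with higher knockout means were Kif2c (0.080, −0.25 to 0.41), Kif15 (0.070), Pttg1 (0.063), Kif22 (0.038) and Ncaph (0.030), each with overlapping groups and an interval across 0. Pttg1 encodes securin, the guard of separase, and read 12.36, 11.96 and 11.85 in controls and 12.08, 11.95 and 12.34 in knockouts. Kif15 was the dimmest member, at 5.78. For Kif2c, a microtubule depolymerase, its 3 dimmer probe sets gave −0.0465 to −0.142, and for Kif22, a chromosome arm motor, both others gave −0.16. Across the list, 31 members had several probe sets. In 12 of these all probe sets had the same sign, and in 19 they did not: Anln, Bub1b, Bub3, Cenpa, Cenpe, Cenpf, Incenp, Kif20b, Kif22, Kif23, Kif2c, Ncaph, Nek2, Nusap1, Pttg1, Smc4, Spc25, Top2a and Tpx2. Of the 60 probe sets that were not the brightest, 43 were lower in the knockout, with a median of −0.077, and 23 of the 60 lay below the array median.

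The shift was not equal over the arrays. Between the arrays numbered 1, 43 of 45 members were lower in the knockout, with a median of −0.26. Between those numbered 2 it was 30, with a median of −0.049, and between those numbered 3 it was 23, with a median of −0.00073. Over all genes 53.4%, 44.8% and 47.2% were lower in these pairs. In all 3 pairs 15 members were lower (33.3%, beside 17.6% of genes). Knockout 1 was the lowest of the 6 arrays in 18 members (40.0%, beside 23.9% of genes), and control 1 the highest in 23 (51.1%, beside 20.4%). With the arrays numbered 1 left out, 30 of 45 members were lower, beside 43.9% of all genes, and the median over the members was −0.032. The members with the 2 smallest p did not follow this course, but a small p favours genes with little spread within a group. Even differences over the pairs are thus partly set by how these 2 were picked. Nusap1 differed by −0.25, −0.28 and −0.31 within numbers 1 to 3 and Bub1 by −0.26, −0.23 and −0.29.

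**Figure D3:**
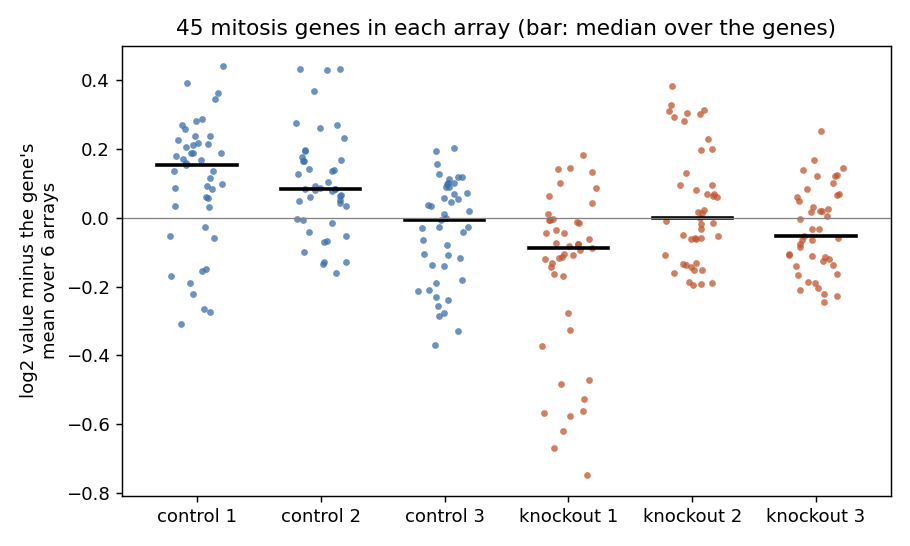
Value of each of the 45 mitosis genes in each array as the deviation from that gene's mean over the 6 arrays (log2), with the median over the genes as a bar. The medians run from 0.152 in control 1 to −0.088 in knockout 1, where the lowest genes reach down to −0.748.

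In 9 members, chosen after their values were seen, both arrays numbered 1 lay below the other 4. They were Incenp, Aurkb and Cdca8 of the chromosomal passenger complex, Plk1, Cdc20, Ube2c, Espl1, Racgap1 and Ncapd2. Incenp, the scaffold of the complex, was at 9.89 in control 1 and 9.45 in knockout 1, and at 10.32 to 10.63 in the other 4 arrays. Aurkb, its kinase, read 8.343, 8.877 and 8.811 in controls and 7.997, 8.923 and 8.757 in knockouts (−0.12, −0.71 to 0.47). Plk1, a kinase of spindle and cytokinesis, read 9.25, 9.81 and 9.46 against 8.87, 9.75 and 9.51 (−0.13, −0.69 to 0.43). By this choice the genotypes had to overlap in all 9, and the split had to run between replicate numbers. The same order was present in 17 of the 21 probe sets of these genes, which include the 9 used for the choice. Without the arrays numbered 1 their differences lay between −0.039 and 0.11, with a median of −0.0039, and over the other 36 members the median was −0.045, with 24 lower. This order held in 20.0% of members, close to the 18.8% of all genes, so it was not particular to the mitosis genes.

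A second course, also picked out afterwards, had control 1 highest and control 3 lowest of all arrays, in 9 members (20.0%, beside 4.58% of genes). Cenpf read 10.08, 9.87 and 9.37 in controls and 9.88, 9.68 and 9.55 in knockouts. Kif20a ran from 9.58 in control 1 to 8.86 in control 3, with knockouts at 9.23, 9.08 and 8.90. By the way these genes were picked, the control range had to take in the knockouts. Aurka was likewise at 9.88, 9.62 and 9.24 in controls and at 9.45, 9.61 and 9.29 in knockouts. The members thus spread between 0.216 (Kif11) and 1.18 (Incenp) over the 6 arrays.

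**Figure D4:**
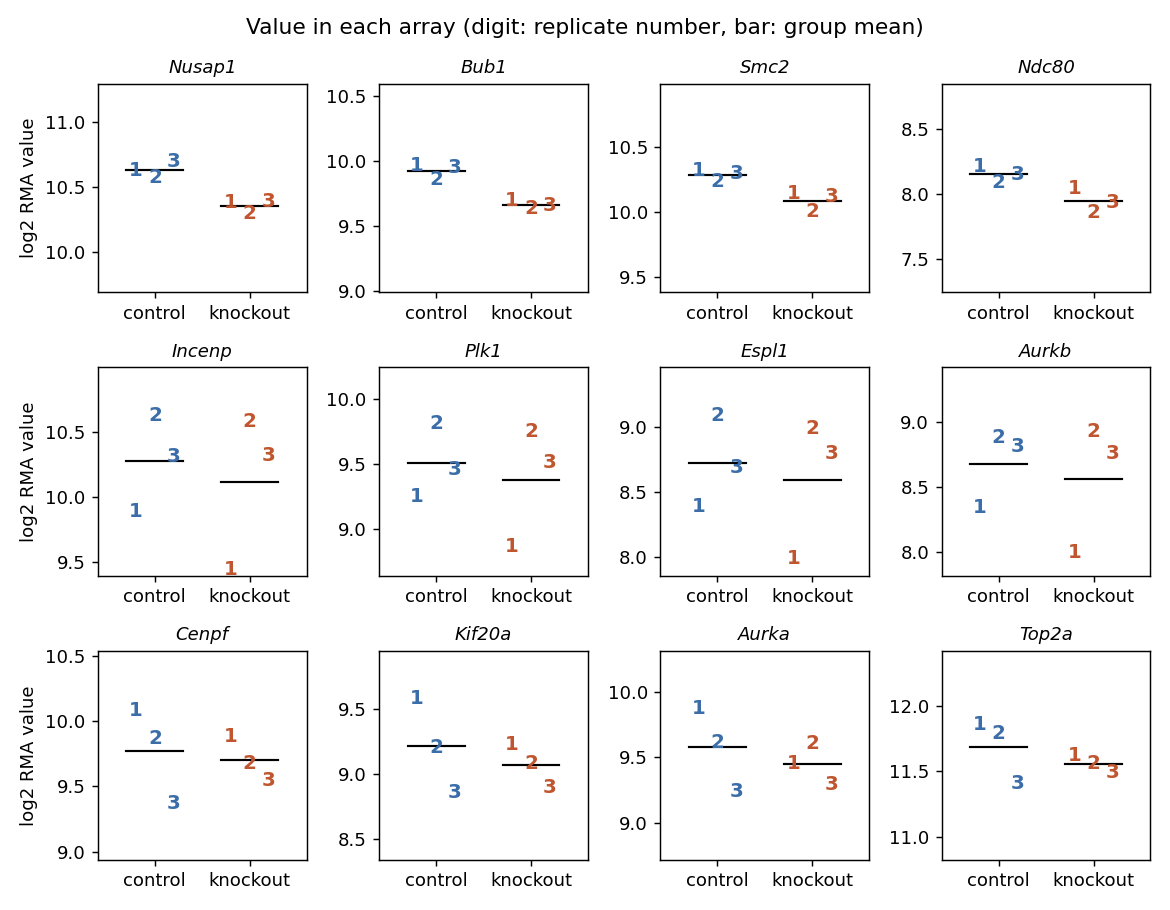
Log2 values of 12 mitosis genes in every array, with the replicate number as the symbol and the group mean as a bar, all panels spanning the same range. The upper row has the 4 members with the smallest p, whose groups do not overlap. In the middle row both arrays numbered 1 are lowest, and in the lower row control 3 is the lowest array.

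Marker lists of other cell types also differed between these arrays. Of 11 endothelial and pericyte markers, 10 were lowest in knockout 1. The mean deviation of that list from each gene's own mean was −0.42, 0.33 and 0.29 in controls and −0.88, 0.32 and 0.36 in knockouts. For 10 fibroblast markers it was −0.26, 0.21 and 0.14 against −0.52, 0.25 and 0.18. The 4 measured passenger complex genes averaged −0.14, 0.23 and 0.056 against −0.50, 0.25 and 0.11. The 15 suprabasal epidermis markers averaged −0.27, −0.31 and −0.12 against 0.63, 0.096 and −0.022, with 14 of 15 higher in the knockout, 9 of them without overlap. The 9 periderm markers, from the outermost embryonic layer, averaged −0.39, −0.45 and −0.25 against 0.92, 0.21 and −0.036, and all 9 were higher, 4 of them without overlap. The 8 mast cell markers averaged −0.44, −0.52 and 0.12 against 0.28, 0.20 and 0.35, and all 8 were higher, 6 of them without overlap. Over all genes, 6.99% were higher without overlap and 47.6% had a lower knockout mean. For 11 basal epidermis markers, among the dividing cells, the averages were 0.055, 0.14 and −0.38 against 0.23, 0.16 and −0.21. Of these, 8 were higher in the knockout and 3 lower, 0 of them without overlap. Of 9 hair placode markers, also of dividing cells, 5 were higher (2 without overlap) and 4 lower. For Gapdh, the signal of the 3′ control probe set less that of the 5′ one, a sign of RNA quality, was −0.126, −0.071 and 0.017 in controls and −0.119, −0.122 and −0.056 in knockouts. For beta-actin it was 0.347, 0.326 and 0.45 against 0.366, 0.342 and 0.432. Neither set the arrays numbered 1 apart from the other 4. The array weights estimated by limma, smaller for noisier arrays, did: 0.432 in knockout 1 and 0.609 in control 1, against 0.987 to 1.81 elsewhere. The part of cell make-up in the mitosis result was not tested.

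**Figure D5:**
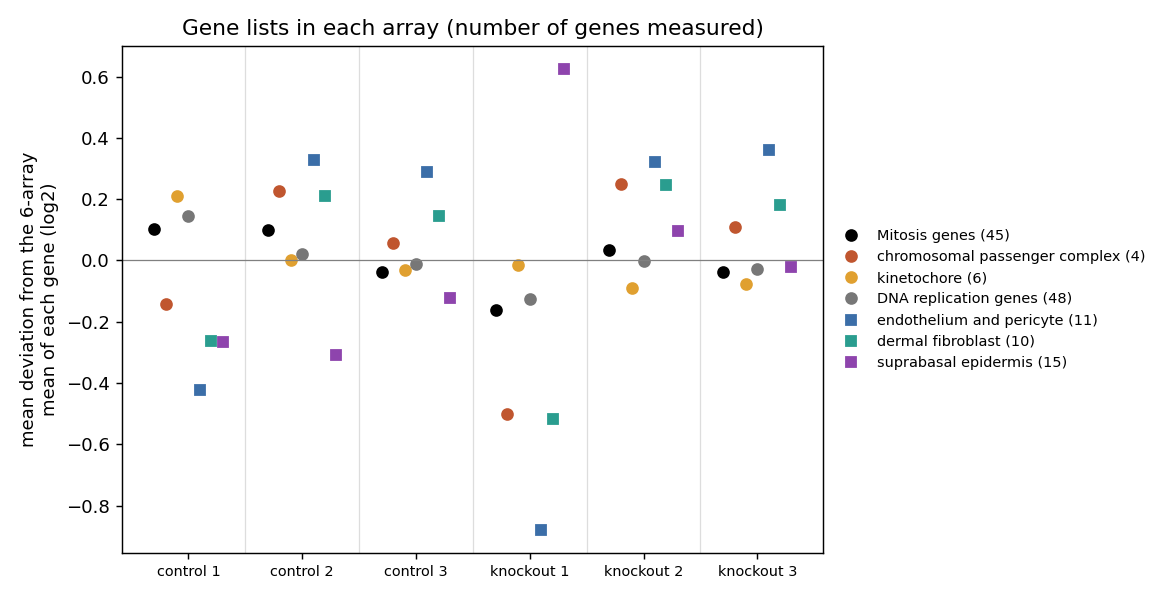
Mean deviation of gene lists in each array (log2, each gene relative to its own mean over the 6 arrays), with the number of genes measured. In knockout 1 the passenger complex (−0.50), fibroblast (−0.52) and endothelial (−0.88) lists are low and the suprabasal list (0.63) is high, while kinetochore genes stay at −0.015.

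Genes of the same process outside the list gave a similar picture, but on the same 6 arrays, so they are no independent check. Of 110 other measured mitosis genes, 95 had lower knockout means (86.4%), with a median of −0.076. The share was 47.6% over all genes and 58.6% among genes above the median level. At an unadjusted limma p under 0.05, 7 were lower and 1 higher, and 0 passed the adjusted threshold. Over all genes 1.91% were lower and 3.17% higher at that p, and 2.45% were lower among genes above the median level. Ska3, which steadies the kinetochore on microtubules, was at 6.60 and 6.25 (−0.35, −0.59 to −0.12). Cdc16, a subunit of the anaphase-promoting complex, was at 10.90 and 10.63 (−0.27), and Ckap2, a spindle protein, differed by −0.26. Nipbl, the cohesin loader, was the 1 higher (0.19, 0.0054 to 0.38). Of 48 DNA replication genes, 44 were lower (91.7%), with a median of −0.098. The mean deviations of the replication list were 0.146, 0.022 and −0.012 in controls and −0.125, −0.0011 and −0.029 in knockouts. Those of the other mitosis genes were 0.101, 0.028 and 0.0021 against −0.068, −0.011 and −0.052. In both lists control 1 was thus the highest array and knockout 1 the lowest. Dbf4, which activates replication origins, differed by −0.33 (−0.52 to −0.13), the helicase subunit Mcm6 by −0.25 and the thymidylate synthase Tyms by −0.24. Of 16 cell cycle inhibitors and exit genes, 9 were higher and 7 lower, with a median of 0.058. The inhibitor Cdkn2b was at 6.95 in controls and 7.44 in knockouts (0.48, 0.089 to 0.88), the antiproliferative gene Btg1 at 12.25 and 11.94 (−0.31) and the p53 target Cdkn1a at 10.87 and 11.12 (0.25, −0.012 to 0.51). Each gene named here had a limma adjusted p of 0.909. No test compared these lists with one another.

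As a check of the labels, Fzd6 lay below every control in all knockout arrays in 2 of its 3 probe sets, and the remaining one differed by −0.0097. The brightest read 9.504, 9.512 and 9.114 in controls and 9.071, 9.012 and 8.714 in knockouts (−0.445, −0.78 to −0.11, limma adjusted p = 0.909). Signal remained in the knockout, and the sources do not place the probes relative to the deletion. Array medians lay between 5.99 and 6.03, and pairs of arrays correlated at 0.985 to 0.996 over probe sets, so no sample was a duplicate (SD of the difference 0.199 to 0.397).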

How the data were processed

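Total RNA of embryonic back skin was biotin labelled and hybridised to MOE430 2.0 arrays, per the labels. The deposited values are RMA summaries on a log2 scale, with RMA named but no version in the submitters' processing notes. Their log base was inferred from the range (2.39 to 14.8). The quantile step of RMA gives all arrays nearly 1 distribution, and RMA is known to compress the differences of dim probe sets. Scanner files were not used here, so no detection calls were made, and precision is limited by 3 arrays a group.

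Of 45101 probe sets, 64 array controls were left out. Platform annotation, updated through Entrez identifiers to GRCm38.p6, gave 34945 probe sets 1 gene symbol, 932 several and 9160 none. The brightest probe set by mean over the 6 arrays stood for a gene. Knockout minus control differences were fitted over 45037 probe sets by two-sided limma tests (version 3.58.1, R 4.3.3, functions lmFit and eBayes). The p-values were adjusted by Benjamini-Hochberg over every tested probe set. The fit was also run on simulated data with independent noise and planted log2 changes of at least 1, larger than any member's difference. That run therefore cannot show how differences as small as the members' are handled, or shared deviations of whole arrays. Figures were drawn with matplotlib 3.10.9. Members, gene lists and tests were chosen with earlier results of these data known. Per-array values are given for the 12 members with the smallest p and for Mki67, Top2a, Plk1 and Aurkb, all others being chosen after their values were seen. From the further lists the 3 genes with the smallest p are named, Nipbl being an addition.

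Replicate numbers 1 to 3 occur in both groups. Arrays with equal numbers deviated together (Pearson correlations of 0.568, 0.359 and 0.124). Equal numbers were therefore treated as pairs in the replicate block and the pair differences, while the main fit was unpaired. This pairing comes from the data alone, since no label explains the numbers, and control 2 had a higher correlation with knockout 3 (0.422). Y-linked genes were low in control 2 and knockout 3 (mean deviations of −3.32 and −3.3) and at 1.43 to 1.94 in the remaining arrays. The pairs numbered 2 and 3 thus each joined a low and a high array for these genes. With the replicate block, 3 probe sets passed the adjusted threshold, none for a member. Alternatives are listed in the closing section.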

Additional observations from a re-analysis of the deposited data

How the results depend on the processing

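No member passed the adjusted threshold under the alternatives fitted (with the replicate block, the smallest limma adjusted p of a member was 0.34). The count of probe sets past it was 0 except with the replicate block, where it was 3. There, 5 members were lower at an unadjusted p under 0.05, beside 5.73% of all genes. That count, 4 with all arrays, was 2 with a variance trend, without dim probe sets, with centred arrays, with the Y-linked covariate and at an unadjusted p under 0.01, and ranged from 2 to 6 when single arrays were left out. The matching shares of all genes were 1.91% with all arrays, then 1.36%, 1.57%, 1.4%, 1.75% and 0.28% in the order named. With single arrays left out they were 1.21% to 3.12%. Why the count moved was not tested. Members lower without overlap numbered 7 with all arrays, beside 4.31% of all genes. They numbered 8 to 17 when single arrays were left out, where fewer arrays make such an order easier. With the mean over the probe sets of a gene there were 3. With every probe set counted there were 14 of 105, of which 83 had lower means. The shares of all genes without overlap in these settings were not determined, so these counts cannot be set against a background. The median difference was −0.0321 without both arrays numbered 1, −0.047 with array weights, and −0.0769 (without control 1, 32 of 45 lower) to −0.155 (without control 3) when single arrays were left out. Without knockout 1 it was −0.0961, with 29 of 45 lower. Over all genes 45.5% were lower without control 1 and 44.0% without knockout 1.

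Of 254 values of 16 named members under the alternatives, 250 kept their sign. Plk1 ranged from −0.319 to 0.124 over single arrays left out (0.0195 without control 2, 0.124 without knockout 1) and Aurkb from −0.3 to 0.163 (without knockout 1). Nek2 was at 0.0128 with the mean over its probe sets. Without scanner files, other background corrections were not run.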
